A study of Mus musculus with 6 samples.

Results

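The collagen genes outside the types typical of cartilage were described in 6 RNA-seq libraries of mouse cranial base cartilage. They were picked by a rule on gene symbols, which was set with earlier results of these data known. Of the 44 collagen chain genes among 24346 listed genes, the rule kept the 31 that remain without Col2a1, Col10a1 and every collagen VI, IX and XI gene. The libraries came from the spheno-occipital synchondrosis, a growth cartilage between bones of the skull base, whose layers of flat and of round chondrocytes were cut out of frozen sections by laser. The library titles give 2 codes, FP and RR, with 3 libraries under each, numbered 11, 14 and 16 in both groups, and no label spells the codes out. All 6 libraries share the genotype Gli1CreERT2; Tomato flox, in which a Cre recombinase driven from the Gli1 gene and switched on by tamoxifen marks cells with a red reporter, and tamoxifen was given to all on postnatal day 3. No source used here states the age of the mice at collection. Nor does any state that each library is a different animal, so the p-values speak of the spread among these samples alone, and that spread may be technical.

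Collagens are secreted proteins built from 3 chains wound into a triple helix. Fibrillar collagens form the tensile fibrils of bone, tendon, skin and cartilage, basement membrane collagens form sheets under cells and around vessels, and the smaller families bind to fibrils, span cell membranes or sit at the borders of basement membranes. In growth cartilage most of the collagen is type II with types IX and XI, while type I is the collagen of the bone and perichondrium beside it.

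Levels are FPKM, which count fragments against transcript length and library size, so levels may be compared between genes. Depth read from the steps of low values differed 2.33-fold between the shallowest and the deepest library, provided that no later scaling moved those steps. The summed chondrocyte markers stood above every list for another cell type in all 6 libraries (46870 to 78900 FPKM in FP and 42140 to 86900 in RR for the 8 of 10 markers listed). Bone, osteoclast, muscle and blood genes were also present, and their values stand beside the collagens below. These are bulk libraries, in which fewer cells of a type and less RNA per cell cannot be told apart. FP and RR were compared with limma on log2(FPKM + 1) over 14789 genes averaging 1 FPKM or more, and an adjusted p under 0.05 passed the threshold. All differences below are FP minus RR on that log2 scale, which understates those of low genes, and a fold is the ratio of the 2 group means in FPKM.

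Of the 31 collagens, 23 reached a mean of 1 FPKM and were tested. None of the 23 differed between FP and RR past the threshold (limma, 0 higher and 0 lower), where 0.967% of all tested genes did. At an unadjusted p under 0.05 there were 2 of 23, Col4a2 and Col27a1, or 8.70%, against 10.3% of all tested genes. The groups did not overlap for 3 of the 23, or 13.04%, against 16% of all tested genes. Col27a1 was the 1 gene with FP above RR (background 8.74%), and Col4a2 and Col14a1 were the 2 with FP below RR (background 7.28%). By their estimates 10 were higher and 13 lower in FP, 3 of these signs turned after quantile normalization, and the median difference was -0.089 against 0.017 for all tested genes. In this fit the family outside the cartilage-typical types thus had shares close to the background by each of these counts. Standard errors ran from 0.26 to 0.86, and for 4 of the 23 (Col4a5, Col8a1, Col12a1 and Col25a1) the 95% interval lay between -1 and 1 on the log2(FPKM + 1) scale. For the others the interval reached past at least 1 of these bounds. These values come from a fit that did not use the library numbers. With the library number added to the fit, 2 of the 23 passed, Col27a1 and Col4a2, as did 271 of all 14789 tested genes. The share of the family past the threshold was then above that of all tested genes, though it rests on these 2 genes.

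**Figure D1:**
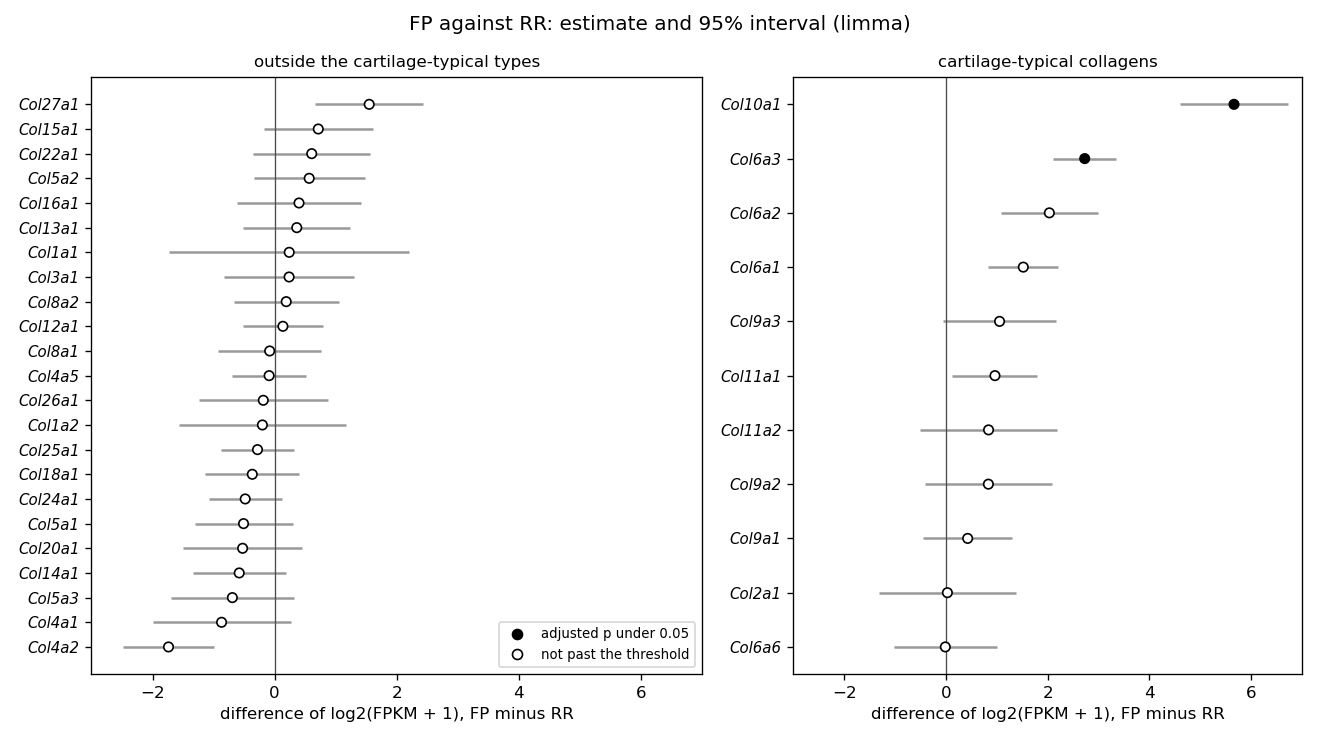
Difference of log2(FPKM + 1), FP minus RR, with its 95% interval from limma, for the 23 tested collagens outside the cartilage-typical types and, in the second panel, the 11 tested cartilage-typical collagens. Filled points passed an adjusted p of 0.05: they are Col10a1 and Col6a3, both in the second panel, while all 23 points of the first panel are open.

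The cartilage-typical collagens, measured in the same libraries, held 2 genes past the threshold among 11 tested, where 0.967% of all tested genes passed. These were Col10a1, the collagen of hypertrophic chondrocytes (5.66 ± 0.47 SE, limma adjusted p = 0.00202), and Col6a3, a chain of pericellular collagen VI (2.73 ± 0.27 SE, limma adjusted p = 0.00418). Of these 11 genes, 10 were higher in FP by their estimate, as were 7634 of all 14789 tested genes. Their median difference was 0.96, against 0.017 for all tested genes and 0.14 for all genes averaging 5 FPKM or more. No test set the 2 sets of collagens against each other. The 31 genes together made up 3.09%, 2.14% and 1.445% of the summed collagen FPKM in FP 11, 14 and 16, and 4.48%, 1.39% and 0.989% in RR 11, 14 and 16.

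Levels spread over more than 3 orders of magnitude. Means over the 6 libraries were at least 100 FPKM for 5 genes (Col27a1, Col1a1, Col1a2, Col12a1 and Col16a1), 10 to 100 FPKM for 5 (Col3a1, Col4a2, Col5a1, Col5a2 and Col4a1), 1 to 10 FPKM for 13 and under 1 FPKM for 8. The median tested gene of the libraries had a mean of 4.53 FPKM. Col27a1 had the highest mean of the 31, at 509.7 FPKM, and only 102 tested genes of any kind were higher.

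**Figure D2:**
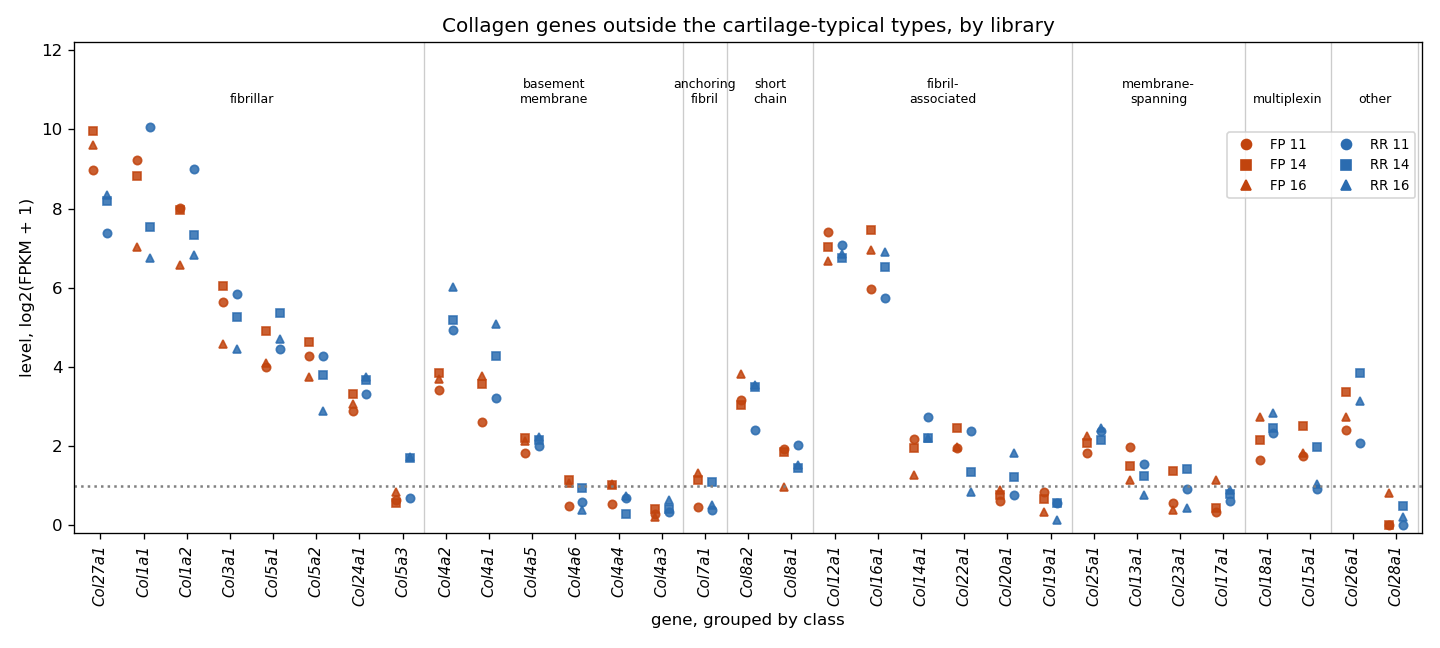
Level of each of the 31 collagens in each library, as log2(FPKM + 1), grouped by class and ordered by mean within a class, with FP in orange, RR in blue and the library number as the marker shape. The dotted line marks 1 FPKM. Fibrillar and fibril-associated chains hold the 5 highest means, and Col27a1 and Col4a2 are the genes with the clearest gap between the colours.

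Among the fibrillar collagens, Col27a1 had the largest difference. It codes for the chain of type XXVII collagen, a short fibrillar collagen known from cartilage, so the highest member of a set named for its distance from cartilage types is itself made there. Col27a1 measured 501, 997 and 783 FPKM in FP 11, 14 and 16, compared with 166, 289 and 321 in RR 11, 14 and 16. The groups did not overlap, and library 11 was lowest in both. FP averaged 760.5 ± 248.6 FPKM and RR 259 ± 81.7 (SD, n = 3 each), which is a 2.94-fold ratio. The difference was 1.55 ± 0.39 (SE, 95% interval 0.67 to 2.43) with a limma adjusted p = 0.157, so it did not pass the threshold over all genes. Each library held an estimated 3240 to 15900 fragments of Col27a1. In the 6 fits without 1 library its difference ran from 1.26 to 1.82, with limma adjusted p between 0.147 and 0.467. With the library number added to the fit, Col27a1 passed (limma adjusted p = 0.0172).

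The gene lies on mm10 at chr4:63214004-63334991 on the plus strand. The 250 bases upstream of its RefSeq start site (GRCm38.p6, chr4:63215162-63215411, plus strand) are shown because Col27a1 is the member with the highest level. The window lies inside the GENCODE bounds of the gene given above, which begin further upstream. Capitals mark the match to the GC box, GGGCGG or its reverse complement CCGCCC.
Col27a1 upstream: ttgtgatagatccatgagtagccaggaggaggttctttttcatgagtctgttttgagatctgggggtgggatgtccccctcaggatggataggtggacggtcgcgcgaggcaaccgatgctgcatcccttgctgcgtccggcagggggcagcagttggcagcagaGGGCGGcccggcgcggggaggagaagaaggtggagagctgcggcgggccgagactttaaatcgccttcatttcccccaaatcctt
The GC box began 85 bases upstream of the start site, and 32.7% of 32851 RefSeq windows of this length hold one on either strand. The window held no TATAAA, no CCAAT and no ACAAT, the last being a core of SOX factor motifs, on either strand. Those letters stood in 12.4%, 33.8% and 27.7% of all windows. A match of such short letters is a description of the window and not evidence of a bound site. Of the 31 collagens, 24 had a sequence in the RefSeq table, with 25 windows because Col18a1 has a second start site, and 14 of the 25 held a GC box.

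The 2 chains of type I collagen, the main collagen of bone, tendon and skin, overlapped between the groups and had the largest standard errors of the 23. Col1a1 (chr11:94936224-94953042, plus strand) measured 596, 453 and 130 FPKM in FP 11, 14 and 16, compared with 1077, 185 and 107 in RR 11, 14 and 16. Col1a2 (chr6:4504814-4541544, plus strand) measured 259, 248 and 94.8 FPKM across the FP libraries and 508, 160.4 and 113 across the RR libraries. For both chains the order of the libraries was 11, 14, 16 in each group, and RR 11 was the highest of all 6. The highest RR value of Col1a1 was 10.1 times the lowest, and the highest FP value 4.59 times the lowest. The difference was 0.24 ± 0.86 for Col1a1 (SE, 95% interval -1.73 to 2.21, limma adjusted p = 0.968), which leaves room for more than a 3-fold change either way, and its sign turned after quantile normalization. For Col1a2 it was -0.20 ± 0.60 (SE, limma adjusted p = 0.961).

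Library 11 was also the highest of both groups for 5 of the 10 osteoblast and osteocyte markers and for 4 of the 8 blood and osteoclast markers. The exceptions were Ibsp, Ifitm5, Mepe, Sost and Sp7 in the first list and Hba-a1, Hbb-bs, Lyz2 and Ptprc in the second. The pattern was not confined to these lists. Among the chondrocyte markers Hapln1, Matn1 and Matn3 had it, while Acan, Col2a1, Col9a1, Sox9 and Ucma did not. Among the muscle markers Mylpf, Myog, Tnnc2 and Tnnt3 had it, while Acta1, Ckm, Myh3 and Myh8 did not. The share of all tested genes with library 11 highest in both groups was not computed. Bglap, the osteocalcin gene of mature osteoblasts, measured 7.44, 5.69 and 2.77 FPKM in FP 11, 14 and 16, compared with 32.5, 0 and 0.65 in RR 11, 14 and 16. Spp1, the osteopontin gene, measured 185, 92.4 and 47.8 FPKM across the FP libraries and 220.0, 21.9 and 24.0 across the RR libraries. Ctsk, the cathepsin K gene of osteoclasts, measured 62.3, 19.9 and 5.10 FPKM across the FP libraries and 56.9, 20.9 and 7.29 across the RR libraries, and Mmp9 followed the same order of libraries. These 4 genes were singled out after their values were seen. The whole list of 10 osteoblast and osteocyte markers summed to 382, 342 and 187 FPKM across the FP libraries and to 329, 41.5 and 42.4 across the RR libraries. Of its 9 tested genes only Sp7, the osterix factor, passed the threshold, higher in FP. Bglap2 was listed at 0 in 4 libraries, Sost in 2 and Bglap in 1. Whether bone tissue in the captures sets the level of Col1a1 and Col1a2 was not tested. Without both libraries numbered 11 the difference was 0.78 for Col1a1 and 0.18 for Col1a2, and neither passed.

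**Figure D3:**
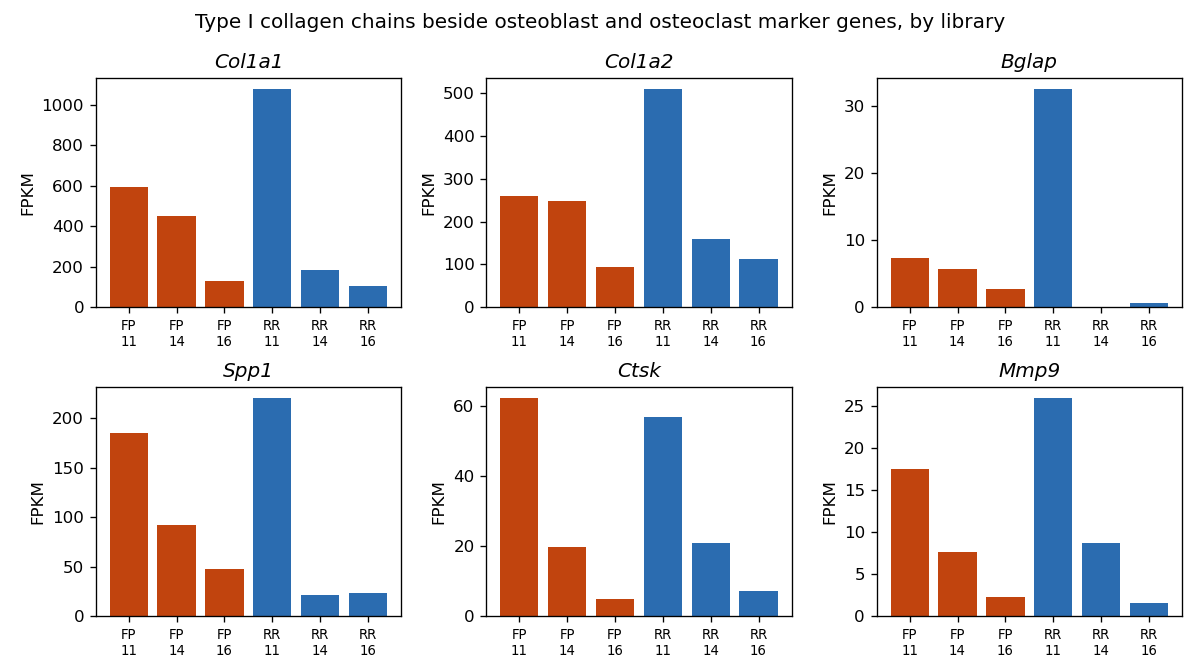
FPKM of Col1a1 and Col1a2 in each library (orange FP, blue RR, bars from 0) beside 2 osteoblast genes, Bglap and Spp1, and 2 osteoclast genes, Ctsk and Mmp9. These 4 marker genes were chosen after their values were seen. In their full lists library 11 was highest in both groups for 5 of 10 osteoblast and osteocyte genes and 4 of 8 blood and osteoclast genes. Some chondrocyte and muscle markers, but not all, had the same pattern. Library 11 is the highest of its group in all 6 panels, and RR 11 is the highest bar in all panels but that of Ctsk, where FP 11 stands at 62.3 against 56.9 FPKM.

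The remaining fibrillar chains stood at lower levels. Col3a1, the chain of type III collagen in loose and vascular connective tissue, measured 48.8, 65.4 and 23.0 FPKM in FP 11, 14 and 16, compared with 56.3, 37.6 and 20.8 in RR 11, 14 and 16, with overlapping groups and library 16 lowest in both (difference 0.24 ± 0.47 SE, limma adjusted p = 0.932). Type V collagen nucleates type I fibrils and limits their width. Col5a1 measured 15.1, 29.0 and 16.02 FPKM across the FP libraries and 20.96, 40.1 and 25.2 across the RR libraries, and library 14 was the highest of each group. Col5a2 measured 18.5, 23.8 and 12.5 FPKM across the FP libraries and 18.3, 12.98 and 6.43 across the RR libraries. Their estimates had opposite signs, -0.51 ± 0.35 for Col5a1 and 0.57 ± 0.40 for Col5a2 (SE, limma adjusted p = 0.716 and 0.718). Col5a3, the third chain of type V, stayed at or below 2.30 FPKM in every library, with FP libraries at 0.549, 0.467 and 0.797 FPKM and RR libraries at 0.596, 2.27 and 2.30. Col24a1, a fibrillar chain of developing bone, had one of the smallest spreads of the family. It measured 6.38, 8.98 and 7.35 FPKM across the FP libraries and 8.90, 11.6 and 12.4 across the RR libraries, so that a single FP library, FP 14, reached the RR range. Its difference was -0.48 ± 0.26 (SE, 95% interval -1.08 to 0.11, limma adjusted p = 0.620).

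Col4a2, a basement membrane chain, had the largest difference of the whole set in either direction. Type IV collagen forms the net of every basement membrane, and its commonest form joins Col4a1 and Col4a2 chains. Col4a2 measured 9.67, 13.3 and 11.8 FPKM in FP 11, 14 and 16, compared with 29.6, 35.6 and 64.1 in RR 11, 14 and 16. All 3 FP libraries lay below all 3 RR libraries, with the FP values close together and RR 16 well above the other RR libraries. FP averaged 11.6 ± 1.84 FPKM and RR 43.1 ± 18.4 (SD, n = 3 each), a mean 3.71 times higher in RR. The difference was -1.74 ± 0.33 (SE, 95% interval -2.49 to -0.98) with a limma adjusted p = 0.0577, just outside the threshold. It came inside when only genes averaging 5 FPKM or more were tested (limma adjusted p = 0.0372), with quantile normalization (0.0227), with rescaling to the sum without small RNAs and the highest genes (0.0314) and with library weights (0.0430). It also came inside with the library number added to the fit (limma adjusted p = 0.0284). It stayed outside in each of the 6 fits without 1 library (limma adjusted p = 0.0624 to 0.227).

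Col4a1 was lower than Col4a2 in 5 of the 6 libraries and varied more. It measured 5.11, 10.9 and 12.6 FPKM across the FP libraries and 8.31, 18.3 and 32.6 across the RR libraries, so that RR 11 fell among the FP libraries. The difference was -0.87 ± 0.50 (SE, limma adjusted p = 0.644). The ratio of Col4a1 to Col4a2 within a library, which does not depend on how libraries were scaled, was 0.528, 0.820 and 1.07 in FP and 0.281, 0.514 and 0.509 in RR. All 3 FP ratios lay above all 3 RR ratios, by 0.88 on the log2 scale, and the exact permutation test (two-sided) gave p = 0.10, the smallest that 3 libraries against 3 can give (adjusted p = 0.375 over the 5 ratios computed).

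Endothelial genes, as vessels are a rich source of type IV collagen, summed to 11.9, 21.8 and 18.5 FPKM across the FP libraries and to 9.48, 24.2 and 32.3 across the RR libraries over 10 markers. None of the 9 tested passed, none was at 0 in any library, and the sums of the groups overlapped. By their estimates 3 of the 9 were higher and 6 lower in FP, with a median difference of -0.098. Of the 9 only Tek, a receptor of vessel cells, had all FP libraries (1.02, 1.02 and 0.540 FPKM) below all RR libraries (1.64, 1.54 and 1.82 FPKM). Col4a2 had the same, as did 7.28% of all tested genes. RR 16 was highest of the 6 libraries and RR 11 lowest in the endothelial sum, while Col4a2 was highest in RR 16 and lowest in FP 11. Pericyte and smooth muscle markers summed to 124 to 171 FPKM in FP and 67.7 to 129 in RR, most of it Cspg4, a proteoglycan also made by other cells, and none of the 8 passed. The part of vessel cells in the Col4a2 and Col4a1 values was not tested.

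**Figure D4:**
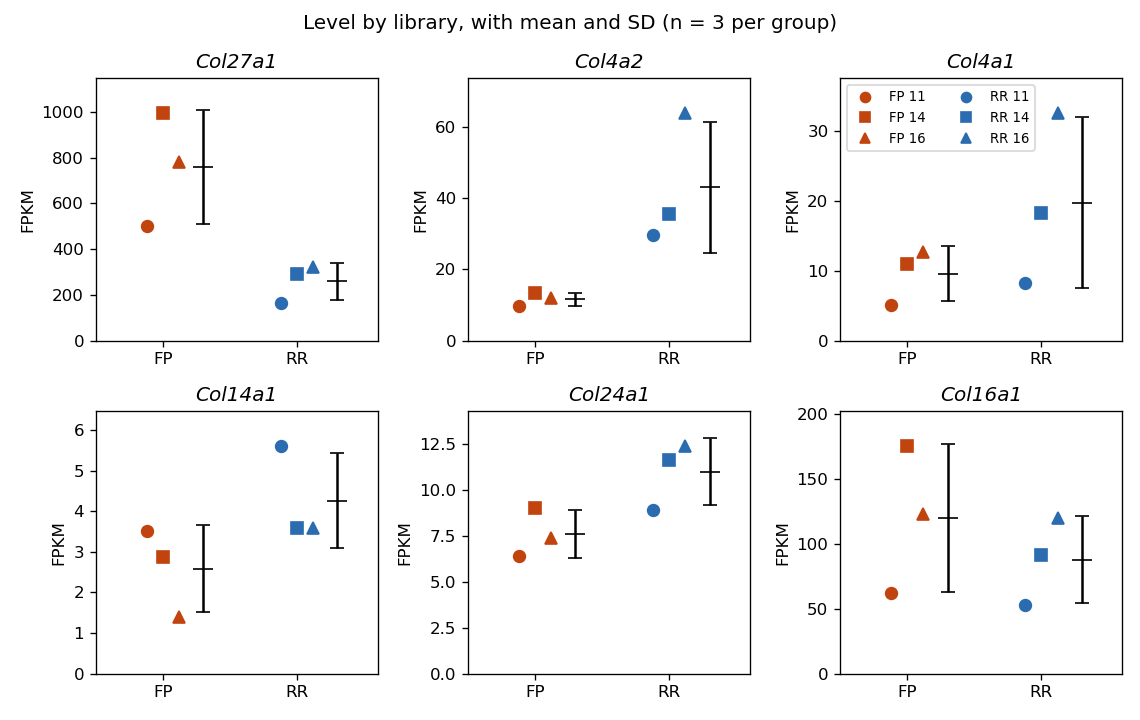
FPKM by library for Col27a1, Col4a2, Col4a1, Col14a1, Col24a1 and Col16a1, with the mean and SD of each group (n = 3) to the right of its points, on linear axes from 0. The groups do not overlap for Col27a1, Col4a2 and Col14a1, and they overlap for the other genes shown.

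Col4a1 (chr8:11198423-11312826, minus strand) and Col4a2 (chr8:11312805-11449287, plus strand) lie head to head on mm10. The 22 bases by which their annotated starts overlap are shown because both genes are read through them, in opposite directions (GRCm38.p6, chr8:11312805-11312826, plus strand, a GC box in capitals).
Col4a1 and Col4a2 shared start: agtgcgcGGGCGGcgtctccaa
The segment begins at the start site of Col4a2 and ends at that of Col4a1. Upstream of the start site, Col4a2 held 2 further GC boxes and Col4a1 held 0, and each held 1 CCAAT box. Each of these upstream windows lies inside the bounds of the other gene. The shared segment is short beside transcripts of 6615 and 6450 bases, and whether strand was used in counting is not given.

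The other basement membrane chains were low. Col4a5, part of the net of kidney and other specialised basement membranes, measured 2.53, 3.59 and 3.33 FPKM across the FP libraries and 3.01, 3.48 and 3.71 across the RR libraries. Those values were among the steadiest of the family, with a difference of -0.089 ± 0.26 (SE, 95% interval -0.69 to 0.51). Its partner Col4a6 had a mean of 0.731 FPKM, Col4a4 of 0.668 and Col4a3 of 0.306, so none of the other 3 was tested. The Col4a5 to Col4a6 ratio ran from 2.98 to 6.42 in FP and from 3.82 to 12.7 in RR, with overlapping groups (exact permutation p = 0.30).

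Of the 5 chain ratios, Col4a1 to Col4a2 was the only one whose groups did not overlap. Col1a1 to Col1a2 was 2.30, 1.82 and 1.37 in FP and 2.12, 1.151 and 0.943 in RR, and library 11 was again highest in both groups (exact permutation p = 0.30). Type I collagen joins 2 chains of Col1a1 with 1 of Col1a2. Col5a1 to Col5a2 was 0.814, 1.22 and 1.28 in FP and 1.14, 3.09 and 3.92 in RR, where RR 11 fell within the FP range (exact permutation p = 0.30). Col8a1 to Col8a2 was 0.356, 0.362 and 0.0727 in FP and 0.709, 0.170 and 0.174 in RR (exact permutation p = 0.80).

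**Figure D5:**
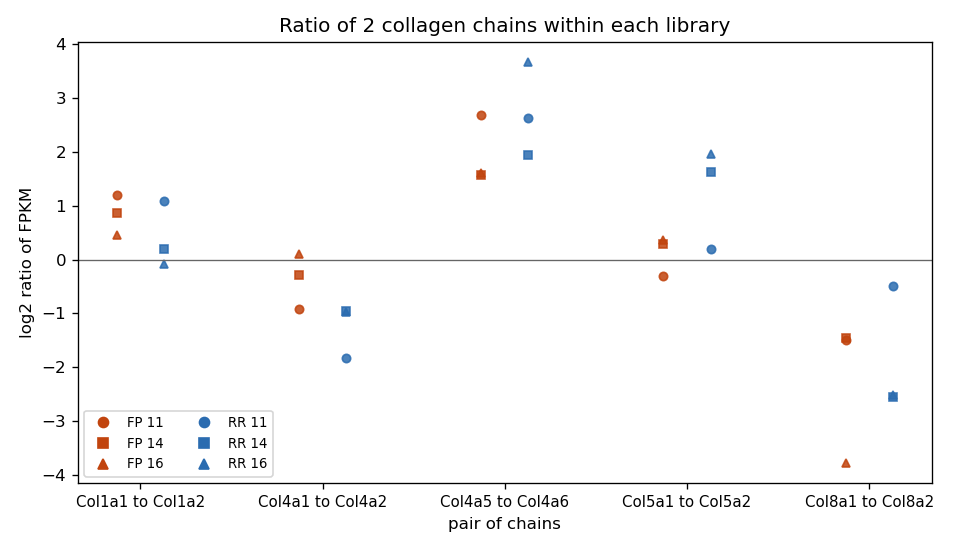
Log2 ratio of the FPKM of 2 collagen chains within each library, with FP in orange, RR in blue and the library number as the marker shape. The groups are apart only for Col4a1 to Col4a2, where the 3 FP ratios lie between 0.528 and 1.07 and the 3 RR ratios between 0.281 and 0.514.

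The fibril-associated collagens, which lie on the surface of fibrils and link them to other matrix, included 2 of the highest members. Col12a1, the chain of type XII collagen, measured 168, 130.4 and 101 FPKM in FP 11, 14 and 16, compared with 135, 107 and 115 in RR 11, 14 and 16. The groups overlapped fully, and the difference of 0.14 ± 0.29 (SE, 95% interval -0.52 to 0.79) turned its sign after quantile normalization and with library weights. Col16a1, the chain of type XVI collagen, known from cartilage and skin, measured 61.7, 176 and 123 FPKM across the FP libraries and 52.6, 91.1 and 120 across the RR libraries. Library 11 was lowest in both groups, and the difference was 0.40 ± 0.45 (SE, limma adjusted p = 0.843).

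Col14a1, whose type XIV collagen binds decorin and type I fibrils, was the third gene with groups apart, by a narrow margin. It measured 3.51, 2.86 and 1.40 FPKM across the FP libraries and 5.61, 3.59 and 3.58 across the RR libraries (difference -0.58 ± 0.33 SE, limma adjusted p = 0.650). Behind these values stood an estimated 24 to 92.7 fragments per library. Col22a1, of the junctions between tissues such as muscle and tendon, measured 2.88, 4.48 and 2.94 FPKM across the FP libraries and 4.20, 1.53 and 0.797 across the RR libraries. Among the RR libraries Col22a1 and the skeletal muscle markers were both highest in RR 11, but among the FP libraries Col22a1 was highest in FP 14, where the muscle sum was lowest. The muscle markers summed over 8 genes to 189, 117 and 204 FPKM for the FP libraries and to 198, 31.4 and 41.5 for RR. None of the 7 tested muscle markers passed, and their part in the Col22a1 values was not tested. Col20a1 measured 0.520, 0.689 and 0.840 FPKM across the FP libraries and 0.704, 1.34 and 2.53 across the RR libraries, with overlapping groups, and Col19a1 had a mean of 0.445 FPKM and was not tested.

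The short chain collagens form lattices in the eye and in vessel walls. Col8a1 measured 2.82, 2.61 and 0.956 FPKM across the FP libraries and 3.07, 1.74 and 1.86 across the RR libraries, and Col8a2 measured 7.93, 7.21 and 13.2 FPKM across the FP libraries and 4.33, 10.2 and 10.7 across the RR libraries. In both, the groups overlapped (differences -0.081 ± 0.37 and 0.19 ± 0.38 SE), and the sign for Col8a1 turned after quantile normalization. Col8a2 was the higher chain in all 6 libraries.

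The membrane-spanning collagens, whose helix projects from the cell surface, and the multiplexins of basement membrane borders were all below 7 FPKM. Col25a1 measured 2.56, 3.20 and 3.76 FPKM across the FP libraries and 4.18, 3.45 and 4.53 across the RR libraries, and Col13a1 measured 2.91, 1.82 and 1.21 across FP and 1.90, 1.35 and 0.682 across RR. Their intervals were -0.88 to 0.32 and -0.51 to 1.24. Col15a1 measured 2.34, 4.66 and 2.55 FPKM across the FP libraries and 0.891, 2.92 and 1.05 across the RR libraries, where RR 14 alone reached the FP range, and its difference of 0.72 ± 0.39 (SE, limma adjusted p = 0.624) was the largest positive estimate after Col27a1. Col18a1, the source of the fragment endostatin, measured 2.14, 3.45 and 5.67 FPKM across the FP libraries and 4.07, 4.52 and 6.15 across the RR libraries, with overlapping groups (difference -0.37 ± 0.34 SE). Col26a1 measured 4.33, 9.33 and 5.62 FPKM across the FP libraries and 3.22, 13.4 and 7.80 across the RR libraries. Library 11 was lowest and library 14 highest in both groups for Col26a1, with a difference of -0.19 ± 0.46 (SE).

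The 8 genes with a mean under 1 FPKM were Col4a3, Col4a4, Col4a6, Col7a1, Col17a1, Col19a1, Col23a1 and Col28a1. Their values ran from 0 to 1.66 FPKM, at most an estimated 36.8 fragments in a library. They fell below the filter, and no call was gained when all 31 collagens were tested with limma without it. Col7a1, the anchoring fibril collagen under epithelia, and Col17a1, of epithelial attachment plaques, had means of 0.826 and 0.655 FPKM. Col28a1 was listed at 0 in FP 11, FP 14 and RR 11, and at 0.749, 0.397 and 0.156 FPKM in FP 16, RR 14 and RR 16.

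The genes that modify, export, cut, crosslink and bind collagen were taken as the wider pathway, from lists of 49 genes. Of the 46 tested, 4 rose in FP and 0 fell (limma, against 0.554% higher and 0.412% lower among all tested genes). An unadjusted limma p under 0.05 was seen for 13 (10.3% of all tested genes had one). By their estimates 33 were higher in FP, as were 7634 of all 14789 tested genes. The median difference was 0.33, against 0.017 for all tested genes. The 4 were a hydroxylase, a protease enhancer, a crosslinking enzyme and a receptor subunit. The lists group genes by their step in the pathway, and which collagens each of the 46 acts on was not tested. A difference in these genes therefore cannot be assigned to the cartilage-typical collagens or to the others.

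Loxl4, a lysyl oxidase that crosslinks collagen, measured 23.6, 26.7 and 23.2 FPKM in FP 11, 14 and 16, compared with 2.48, 3.26 and 4.27 in RR 11, 14 and 16. It was 7.34-fold higher in FP (2.57 ± 0.26 SE, limma adjusted p = 0.00441) and passed in all 6 fits without 1 library. Loxl3, of the same family, averaged 51.9 ± 2.96 FPKM in the FP group and 21.1 ± 3.31 in the RR group (SD, n = 3 each, limma adjusted p = 0.0632). It passed in 3 of the 9 alternative fits that kept all libraries and in 0 of the 6 fits without 1 library. With the other 3 crosslinking genes, Lox, Loxl1 and Loxl2, the list had a median difference of 0.17.

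Pcolce2, which enhances the cleavage of procollagen ends, measured 112, 51.5 and 68.3 FPKM across the FP libraries and 12.22, 3.21 and 10.8 across the RR libraries. It was 8.83-fold higher in FP (3.10 ± 0.48 SE, limma adjusted p = 0.0255), a call lost in 4 of the 6 fits without 1 library and without an intensity trend (limma adjusted p up to 0.114 and 0.0511). Adamts14, a procollagen protease, averaged 4.62 ± 1.21 FPKM in the FP group and 1.32 ± 0.604 in the RR group (SD, n = 3 each, limma adjusted p = 0.157). Of the 7 tested proteases and enhancers 1 passed, and their median difference was 0.0019.

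P3h2, a prolyl 3-hydroxylase, measured 51.7, 68.9 and 56.7 FPKM across the FP libraries and 15.6, 21.1 and 18.2 across the RR libraries. It was 3.23-fold higher in FP (1.64 ± 0.26 SE, limma adjusted p = 0.0261), a call lost in all 6 fits without 1 library (limma adjusted p up to 0.148) and after quantile normalization or without an intensity trend. P3h1, of the same family, averaged 113 ± 5.65 FPKM in the FP group and 68.8 ± 12.7 in the RR group (SD, n = 3 each, limma adjusted p = 0.368). Of the 15 tested hydroxylases and glycosyltransferases 1 passed, and the median difference was 0.64. By their estimates 14 were higher in FP, as were 7634 of all 14789 tested genes.

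Itga10, the integrin subunit of a collagen receptor of chondrocytes, measured 32.9, 44.9 and 38.4 FPKM across the FP libraries and 8.26, 11.7 and 11.4 across the RR libraries. It was 3.70-fold higher in FP (1.80 ± 0.26 SE, limma adjusted p = 0.0203), a call lost in 5 of the 6 fits without 1 library (limma adjusted p up to 0.124). Mrc2, an uptake receptor for collagen, averaged 44.8 ± 5.62 FPKM in the FP group and 79.1 ± 34.0 in the RR group (SD, n = 3 each, limma adjusted p = 0.497). Of the 8 tested receptors 1 passed, with a median difference of 0.083. None of the 11 chaperone and export genes passed (limma, 2 at an unadjusted p under 0.05, median 0.24), and the 2 with the smallest p were Creb3l1, a transcription factor that promotes type I collagen synthesis in osteoblasts, at 29.1 ± 7.01 against 14.1 ± 3.19 FPKM, and Serpinh1, the collagen chaperone HSP47, at 942 ± 92.4 against 550.5 ± 136 FPKM (SD, n = 3 each, limma adjusted p = 0.239 and 0.433).

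Among the markers listed for cell types other than chondrocytes only Sp7 passed the threshold (2.81 ± 0.28 SE, limma adjusted p = 0.00418). Ibsp, of the same osteoblast and osteocyte list, was at 3.08 ± 0.58 (SE, limma adjusted p = 0.0571), with every FP library above every RR library. Col10a1, the collagen of hypertrophic chondrocytes, was higher in FP as well (5.66). Whether the Sp7 and Ibsp values came from bone cells or from chondrocytes was not tested. Groups without overlap were also seen for Cspg4 (FP above RR), Scx and Tek (FP below RR). Among all tested genes, 8.74% had FP above RR and 7.28% had FP below RR without overlap. None of the 7 tested perichondrium, tendon and fibroblast markers passed, where Scx stood at -1.08 and Dpt at -0.80, and their sum was 26.4 to 45.4 FPKM in FP and 28.6 to 48.5 in RR. None of the 8 chondrocyte, 6 blood and osteoclast, 4 epithelial or 5 glial and neuronal markers tested passed. At an unadjusted p under 0.05 limma gave 3 chondrocyte, 2 osteoblast, 2 muscle, 1 fibroblast and 1 pericyte marker. It gave 0 in the endothelial, blood and osteoclast, epithelial and glial lists, and 10.3% of all tested genes. The 2 with the smallest p of each list were Matn3 (1.35) and Sox9 (1.10), Cd68 (-0.70) and Hba-a1 (0.38), Epcam (0.58) and Krt8 (0.42), and Gfap (-0.37) and Tubb3 (0.36). The same pairs were Kdr (-0.77) and Tek (-0.53) for endothelium, Cspg4 (0.86) and Notch3 (-0.36) for pericytes, and Acta1 (2.05) and Myh8 (2.01) for muscle.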

How the data were processed

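RNA-seq values of 6 libraries were used, 3 FP and 3 RR, grouped by the codes in their titles. The deposited tables hold FPKM, as their headers name the unit (per the file headers), in separate columns for each library. The authors' tools, per the submitters' processing notes, included TopHat2 2.1.1 and Bowtie2 2.2.8 besides SAMtools 0.1.18, Cuffdiff 2.2.1 and the mouse build mm10. No source used here gives their roles, the annotation, the use of strand or any scaling between libraries. The kit was a stranded one for total RNA of very low input, per the labels.

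Genes averaging 1 FPKM or more were tested on log2(FPKM + 1). The fit used limma 3.58.1 under R 4.3.3 (eBayes with an intensity trend, two-sided, Benjamini-Hochberg over 14789 genes) and had been tested on simulated data. A ratio of chains was tested by exact permutation over libraries, with adjustment over 5 ratios. Total fragments are unknown, but relative depth could be read from the steps of low FPKM values in genes with 1 GENCODE M21 basic transcript of 1500 to 3000 bp. Of these values 69.4% to 72.5% came out whole (tolerance 0.1 fragments), where chance gives 20%. One fragment was worth between 0.128 and 0.298 FPKM if the transcript was 2000 bp long. Fragments per collagen are this estimate on its longest coding transcript. All 31 collagens were found in GENCODE M21.

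The members and lists were chosen with earlier results of these data known. Every collagen is accounted for, those that were tested by library. Of each other list, the genes past the threshold and the 2 with the smallest p are named. Alternatives were 2 pseudocounts, 2 filters, 2 scalings, no intensity trend, library weights, a block on the library number and leaving out libraries.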

Additional observations from a re-analysis of the deposited data

How the results depend on the processing

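By limma, 143 of all tested genes passed, 83 without an intensity trend and 42 to 85 in the fits without 1 library. The count was 42 without both libraries 11, 8 without both 14 and 20 without both 16. None of the 23 collagens passed in those fits. Col4a2 alone passed with the filter at 5 FPKM, quantile normalization, rescaling and library weights. No label says what the numbers mark, so the main fit did not pair the samples by them. Same-numbered libraries deviated together with correlations of 0.32, 0.18 and 0.089, and 6 of 6 libraries correlated best with their own number. With the replicate block 271 genes passed, among them 2 of the 23 collagens, Col27a1 (limma adjusted p = 0.0172) and Col4a2 (0.0284), and 4 cartilage-typical ones. These also numbered 4 with library weights, 2 without any 1 library, 0 without both 14 and 1 without both 16. The 4 processing and receptor genes became 2 without a trend, 1 to 2 without 1 library, 1 without both 11 and 0 without both 14 or both 16. They became 3 after quantile normalization. With the filter at 5 FPKM, library weights or the replicate block they became 5, with Loxl3 added.

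Col27a1 and Col4a2 kept their direction in all 18 fits, at 1.25 to 1.82 and -1.96 to -1.42. Signs turned for genes near 0. After quantile normalization Col1a1 was at -0.036, Col8a1 at 0.021 and Col12a1 at -0.19. With library weights Col1a1 was at -0.30, Col3a1 at -0.038 and Col12a1 at -0.00087. Without both 11, Col1a2 was at 0.18 and Col8a2 at -0.086. Without both 14, Col1a1 was at -0.29 and Col3a1 at -0.034, and without both 16 Col8a1 was at 0.15. In the fits without 1 library the range was -0.44 to 1.22 for Col1a1, -0.64 to 0.44 for Col1a2, -0.13 to 0.66 for Col3a1, -0.17 to 0.024 for Col4a5 and -0.25 to 0.23 for Col8a1. It was -0.18 to 0.39 for Col8a2, -0.045 to 0.32 for Col12a1, -0.66 to 0.23 for Col26a1 and -0.78 to 0.38 for the log2 ratio of Col8a1 to Col8a2. The cause of these turns was not tested. With 3 libraries a group, the 95% interval lay between -1 and 1 on the log2(FPKM + 1) scale for only 4 of the 23 collagens. Without a filter all 31 were tested and none passed (limma).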
